A study of Mus musculus with 8 samples.

Results

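Vmn2r receptors, the second family of vomeronasal pheromone receptors, were followed across arrays of olfactory mucosa from newborn mice that lost Emx2 in olfactory sensory neurons (OSNs) and from littermate controls. Their members are the array rows to which the platform annotation gives a single symbol starting with Vmn2r. There were 56 such rows, covering 49 symbols, among 23410 tested rows and 35557 rows in all. Of these 56 rows, 52 stand for protein-coding genes and 4 for 3 pseudogenes (Vmn2r-ps11, Vmn2r-ps54 and Vmn2r-ps104). A further 36 rows carry several symbols that all start with Vmn2r and are described apart as shared rows. They hold 57 symbols, 35 of them on no row of their own.

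Emx2 is a homeodomain transcription factor. The knockout group held 4 samples of genotype 123Cre:Emx2(fl/fl), and the control group held 4 samples, 2 of genotype 123Cre:Emx2(fl/+) (replicates 1 and 4) and 2 of genotype Emx2(fl/fl) without Cre (replicates 2 and 3). All came from postnatal day 1 on a mixed 129 x C57BL/6J background, so every genotype carried at least 1 floxed Emx2 allele, and each sample was measured on 1 array. The 123Cre transgene is active from the immature OSN stage on, and its recombination reaches only part of the OSN population. No source used here describes its activity in vomeronasal neurons. Emx2 mRNA was 9.80, 9.86, 10.01 and 9.93 in the knockouts and 10.80, 10.86, 10.997 and 10.72 in the controls, as deposited log2 values, the scale used throughout.

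Vmn2r proteins are G protein-coupled receptors with a large extracellular ligand-binding domain. They belong to sensory neurons of the basal layer of the vomeronasal organ, which signal through the G protein subunit encoded by Gnao1, and are known for detecting peptides and proteins in secretions and urine. Most neurons of this layer carry a specific receptor together with a member of the broadly co-expressed family C, the group Vmn2r1 to Vmn2r7. The labels name the tissue olfactory mucosa and do not mention the vomeronasal organ. The signal of most members was low. Between 54 and 55 of the 56 rows in knockouts, and between 46 and 51 in controls, lay below the lower quartile of the tested rows of the same array. In a whole tissue, fewer cells of a type and less mRNA per cell cannot be told apart.

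Facts of the arrays touch these values. Knockout replicate 2 correlated with the other arrays at a mean of 0.978, and the other arrays at 0.987 to 0.990. Xist was high and Y-linked signal low in knockout 3 and in both 123Cre:Emx2(fl/+) controls, and the reverse held for knockout 2 and both Emx2(fl/fl) controls, so that control genotype and sex cannot be told apart. Knockouts 1 and 4 carried Y-linked signal (9.88 and 10.29) together with an intermediate Xist level (9.15 and 9.93). The labels do not say whether RNA of several mice was combined in a sample, so n counts arrays and may not count mice. Their part in the results was not tested beyond the fits with sex as a term and without these samples, given below.

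Vmn2r mRNAs were lower in the knockout, and none was called higher. At an adjusted p under 0.05 (limma, Benjamini-Hochberg over all tested rows), 11 of 56 rows fell, 19.6% of the family, where 0.350% of all tested rows were called lower and 0.00854% higher. These rows stand for 10 receptors: Vmn2r113, Vmn2r81, Vmn2r1, Vmn2r74, Vmn2r105, Vmn2r17, Vmn2r122, Vmn2r93, Vmn2r96 and Vmn2r78, all protein-coding. At an unadjusted p under 0.05, 36 of 56 were lower and 0 higher, against 3.06% of all rows lower and 3.04% higher. In 30 of 56 rows every knockout lay below every control, which held for 2.54% of all rows, and in 0 rows did every knockout lie above, against 1.98%. The difference was below 0 in 50 of 56 rows, against 48.4% of all rows. The median difference of the members was -0.39 and that of all tested rows 0.004. The mean over the members was 5.22, 5.32, 5.23 and 5.16 in the knockouts and 5.65, 5.75, 5.68 and 5.91 in the controls. The groups did not overlap, and control replicate 4 was the highest sample.

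The count of called rows moved with the samples. It was 4 without knockout 1, 15 without knockout 2, 5 without knockout 3, 6 without knockout 4, 7 without control 1, 5 without control 2, 6 without control 3 and 6 without control 4, and in none of these fits was a Vmn2r row called higher. Lower calls over all tested rows moved as well, from 82 with all samples to 46 without knockout 1 and 109 without knockout 2. In the other leave-one-out fits they were 51 to 59. Leaving out both knockouts with mixed Xist and Y-linked signal, a choice made after seeing the data, left 3 calls, both rows of Vmn2r113 and the row of Vmn2r81. Over all tested rows that fit called 23 lower, and Emx2 itself was not called (adjusted p = 0.0773 by limma). With sex as a term 8 Vmn2r rows fell, and 66 over all tested rows. Sex was set by Y-linked signal alone, so knockouts 1 and 4 counted as Y-linked high despite their Xist. Vmn2r113, Vmn2r81 and Vmn2r96 were called in all 8 fits without a single sample. Vmn2r96 lost its call without both knockouts 1 and 4 (adjusted p = 0.214), with the methods' t-test (adjusted p = 0.0662) and against Emx2(fl/fl) controls alone (adjusted p = 0.0592).

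**Figure D1:**
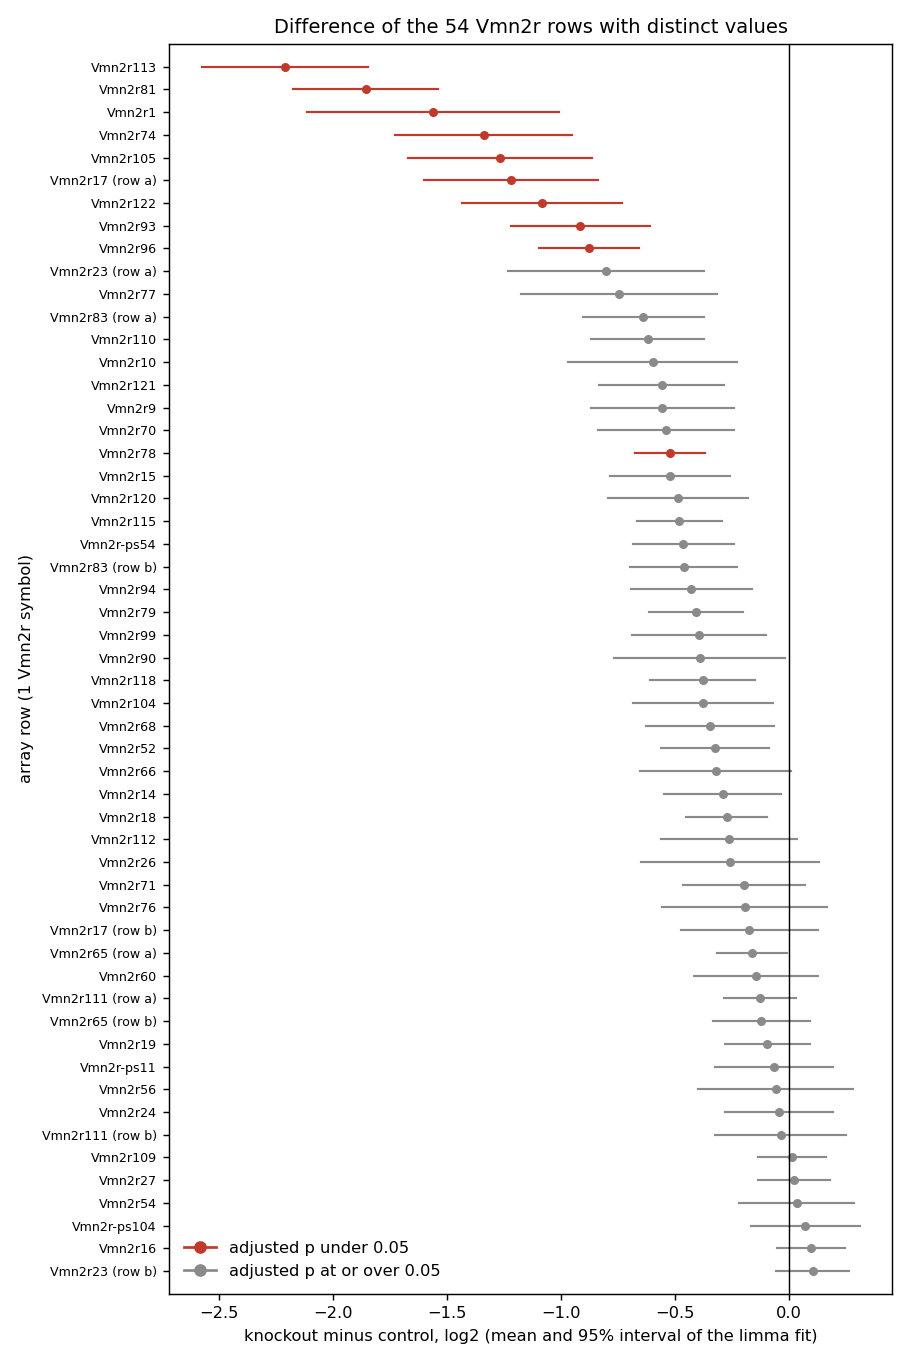
Knockout minus control on the log2 scale (horizontal axis) for the 54 Vmn2r rows with distinct values (vertical axis, rows ordered by difference; row a and row b are rows of the same gene), with 95% intervals of the limma fit; red marks an adjusted p under 0.05. Points run from -2.21 for Vmn2r113 to 0.10 for a row of Vmn2r23, and the 10 red points all lie below 0.

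Vmn2r113 had the largest difference among the members. Its values were 4.54, 5.03, 4.64 and 4.61 in the knockouts and 6.80, 7.03, 6.58 and 7.25 in the controls. The highest knockout lay 1.55 below the lowest control, the widest gap of any called member. Vmn2r113 fell by 2.21 (SE 0.16, adjusted p = 0.00132), and it is listed on 2 rows with the same values. It belongs to the group of genes known as V2rp, with Vmn2r111, Vmn2r112, Vmn2r115 and Vmn2r116. In mice Vmn2r116 is the receptor of the male tear peptide ESP1, and Vmn2r115 that of the juvenile tear peptide ESP22. The other measured genes of the group were not called. Vmn2r115 was 4.84, 5.14, 5.02 and 5.05 in the knockouts and 5.55, 5.38, 5.49 and 5.55 in the controls, with a difference of -0.48 (SE 0.082, adjusted p = 0.0669), the lowest p among the rows that were not called. Its groups did not overlap. Vmn2r112 differed by -0.26 (SE 0.13) with a 95% interval of -0.56 to 0.04, and the intervals of both rows of Vmn2r111, which differed by -0.13 and -0.04, also held 0. The interval of Vmn2r113 ran from -2.58 to -1.85, below each of these. The rows differed in level, however. Control means were 5.49 for Vmn2r115, 5.14 for Vmn2r112 and 5.13 and 4.10 for Vmn2r111. Vmn2r113 averaged 6.92 in the controls and 4.70 in the knockouts. The part of level in these differences was not tested. Vmn2r116 had no row of its own. A shared row of Vmn2r111, Vmn2r112, Vmn2r113 and Vmn2r116 was 7.20, 7.02, 7.04 and 6.85 in the knockouts and 7.66, 7.69, 7.75 and 8.06 in the controls, and fell by 0.77 (SE 0.11, adjusted p = 0.0265).

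The sequences around the annotated starts of these genes are shown to set Vmn2r113 beside the genes of its group. Windows of 300 bases (250 before the annotated start and 50 after) come from RefSeq, assembly GRCm38.p6. Over these windows Vmn2r113 was 84.3% to 85.7% identical to each of the other V2rp genes, which were 96.7% to 98.3% identical among themselves. The 120 bases from 70 before the start are printed in the direction of the gene. In Vmn2r113 (chr17:22943114-22943233, plus strand) capitals mark the first ATG at or after the annotated start, and in Vmn2r112 (chr17:22601078-22601197, plus strand), Vmn2r111 (chr17:22573224-22573343, minus strand), Vmn2r115 (chr17:23343907-23344026, plus strand) and Vmn2r116 (chr17:23384733-23384852, plus strand) capitals mark the 14 to 18 bases that differ from Vmn2r113.
Vmn2r113: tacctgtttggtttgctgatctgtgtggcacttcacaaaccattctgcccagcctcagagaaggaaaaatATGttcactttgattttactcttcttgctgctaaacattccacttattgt
Vmn2r112: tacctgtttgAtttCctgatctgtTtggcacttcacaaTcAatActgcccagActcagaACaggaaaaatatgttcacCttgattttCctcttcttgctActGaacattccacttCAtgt
Vmn2r111: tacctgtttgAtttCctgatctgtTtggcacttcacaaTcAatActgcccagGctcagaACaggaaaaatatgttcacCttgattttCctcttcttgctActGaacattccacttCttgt
Vmn2r115: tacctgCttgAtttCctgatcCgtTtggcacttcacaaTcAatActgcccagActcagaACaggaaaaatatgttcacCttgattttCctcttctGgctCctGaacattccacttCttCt
Vmn2r116: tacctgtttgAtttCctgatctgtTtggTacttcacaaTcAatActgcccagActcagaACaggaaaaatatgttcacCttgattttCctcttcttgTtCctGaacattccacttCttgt
In each the ATG stands at the annotated start, so the window lies directly upstream of the reading frame. This was so for 86.4% of 118 Vmn2r windows and for 5.83% of all 32851 windows, so that the Vmn2r starts are mostly those of the reading frame and the transcript start may lie further upstream.

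Vmn2r81 and Vmn2r83 are neighbouring genes, and Vmn2r81 (V2rf2) is a receptor that in mice responds to peptide ligands of major histocompatibility complex (MHC) class I molecules. Vmn2r81 was 4.54, 4.55, 4.57 and 4.25 in the knockouts and 6.12, 6.45, 6.11 and 6.67 in the controls. No knockout came near a control, and Vmn2r81 fell by 1.86 (SE 0.14, adjusted p = 0.00132). The row of Vmn2r83 with the lower p was 4.80, 4.98, 4.53 and 4.76 in the knockouts and 5.29, 5.48, 5.25 and 5.62 in the controls, a difference of -0.64 (SE 0.117, adjusted p = 0.0965). Its groups did not overlap either. The other row of Vmn2r83 differed by -0.46 (adjusted p = 0.224). Their windows were 67.7% identical, and 120 bases of each are shown for comparison, with the first ATG at or after the annotated start in capitals (Vmn2r81, chr10:79247707-79247826, plus strand; Vmn2r83, chr10:79468888-79469007, plus strand). In Vmn2r81 that ATG lies downstream of the annotated start.
Vmn2r81: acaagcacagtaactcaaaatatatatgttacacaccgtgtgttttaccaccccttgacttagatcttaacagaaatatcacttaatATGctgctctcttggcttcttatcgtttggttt
Vmn2r83: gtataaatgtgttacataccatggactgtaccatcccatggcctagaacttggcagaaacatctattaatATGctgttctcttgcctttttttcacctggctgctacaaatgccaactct

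Vmn2r1 was the measured member of family C, the receptors co-expressed with others. It was 6.60, 7.01, 6.41 and 5.87 in the knockouts and 7.62, 8.41, 7.97 and 8.15 in the controls. Every knockout was below every control, with knockout 2 the highest knockout and knockout 4 the lowest. Vmn2r1 fell by 1.56 (SE 0.244, adjusted p = 0.0395), the call nearest to the threshold, and it was called in 1 of the 8 leave-one-out fits. Vmn2r2 to Vmn2r5 were present on 2 shared rows, together with Vmn2r-ps11. The row that also lists Vmn2r1 differed by -0.60 (SE 0.111, adjusted p = 0.105) and the row of Vmn2r2, Vmn2r5 and Vmn2r-ps11 by -0.42 (SE 0.101, adjusted p = 0.285). In both rows every knockout was below every control, and neither was called. Vmn2r-ps11 on its own row differed by -0.07 (adjusted p = 1.0).

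The 7 other called receptors differed in how firmly the call held. Vmn2r96 was 4.71, 4.87, 4.60 and 4.74 in the knockouts and 5.63, 5.45, 5.52 and 5.81 in the controls, and fell by 0.88 (SE 0.0967, adjusted p = 0.00617). Vmn2r74 was 5.71, 5.92, 6.01 and 6.04 in the knockouts and 7.01, 6.96, 7.32 and 7.75 in the controls, and fell by 1.34 (SE 0.172, adjusted p = 0.0135). Both sets of values were apart by more than the spread within either group, and the call on Vmn2r74 held in 6 of the 8 leave-one-out fits. Vmn2r105 was 4.57, 5.12, 4.96 and 4.82 in the knockouts and 5.84, 6.03, 6.04 and 6.63 in the controls, and fell by 1.27 (SE 0.179, adjusted p = 0.0237). The row of Vmn2r17 that was called had 4.21, 4.69, 4.26 and 4.42 in the knockouts and 5.24, 5.77, 5.48 and 5.97 in the controls, and fell by 1.22 (SE 0.169, adjusted p = 0.0212). Control 4 was the highest sample in both, and Vmn2r105 was called in 3 and Vmn2r17 in 2 of the 8 fits.

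Vmn2r122 was 6.32, 6.45, 5.81 and 5.92 in the knockouts and 7.04, 7.12, 7.25 and 7.42 in the controls, and fell by 1.08 (SE 0.155, adjusted p = 0.0255). Vmn2r93 was 6.61, 6.00, 6.60 and 6.46 in the knockouts and 7.24, 7.42, 7.34 and 7.33 in the controls, and fell by 0.92 (SE 0.135, adjusted p = 0.0288). In Vmn2r93 knockout 2 was the lowest sample, whereas it was the highest knockout in 7 of the 10 called receptors. Vmn2r122 and Vmn2r93 were each called in 1 of the 8 fits. Vmn2r78 had the smallest difference of the called members, 3.81, 3.95, 3.82 and 3.93 in the knockouts and 4.45, 4.39, 4.32 and 4.45 in the controls. It fell by 0.52 (SE 0.0675, adjusted p = 0.0139) with a gap of 0.37 between the groups, and was called in 3 of the 8 fits. On the linear scale the 10 decreases ran from 30.4% for Vmn2r78 to 78.4% for Vmn2r113. In all 10 the groups did not overlap, which nearly follows from picking rows by their p on these same values. Over all tested rows 2.54% had every knockout below every control. Control 4 was the highest sample in 8 of the 10.

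**Figure D2:**
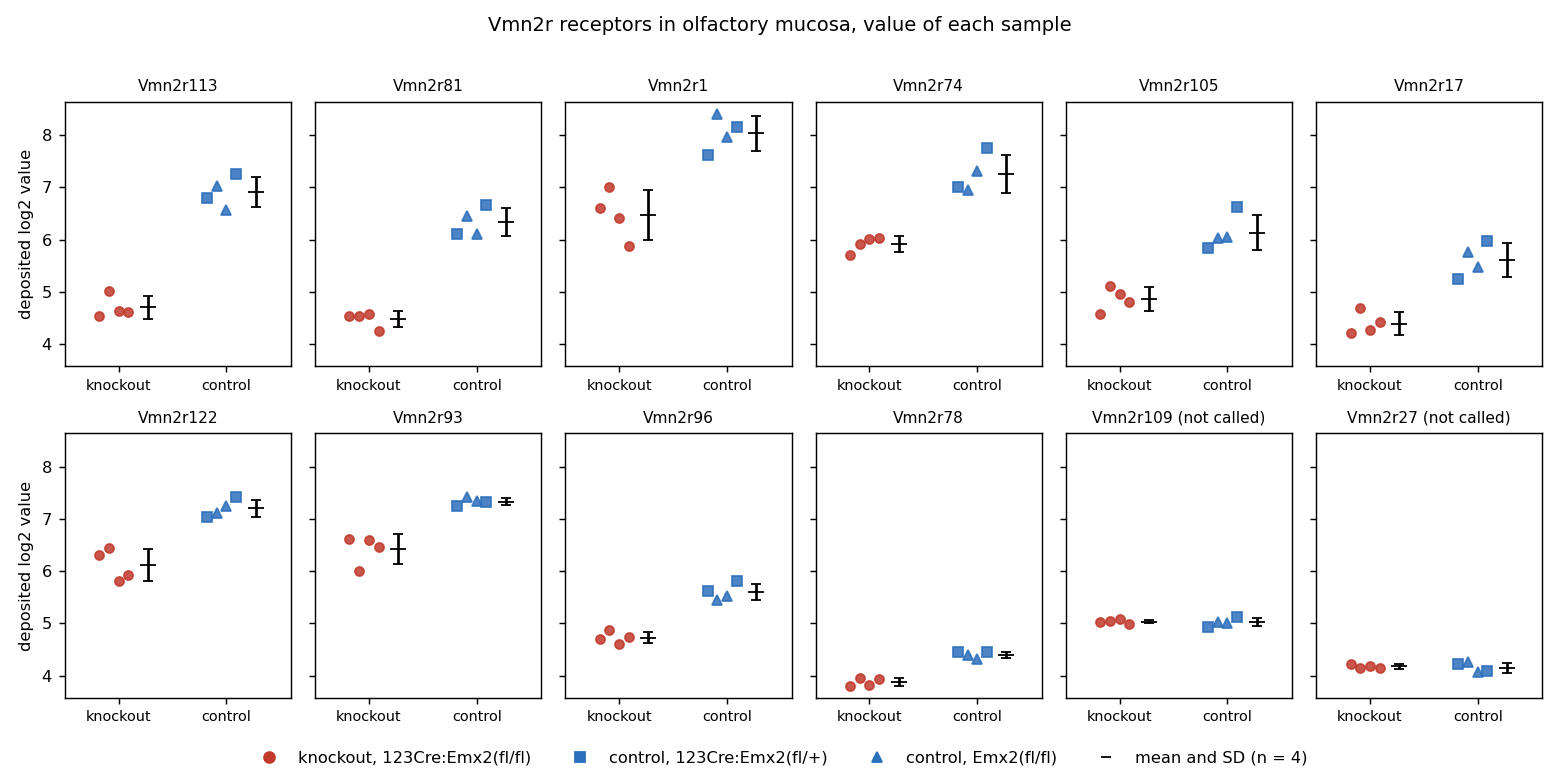
Deposited log2 values (vertical axis, shared by all panels) of the 10 called receptors and of the 2 rows with the smallest difference, knockout on the left and control on the right of each panel, with 1 point per sample, its shape showing the genotype, and the mean and SD (n = 4) beside the points. Vmn2r113 averages 4.70 in the knockout and 6.92 in the control, while Vmn2r109 averages 5.04 in the knockout and 5.02 in the control.

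Of the 45 rows that were not called, 25 had an unadjusted p under 0.05, all with a difference below 0 (median -0.46). Vmn2r110 was 4.93, 5.02, 5.05 and 4.79 in the knockouts and 5.64, 5.67, 5.28 and 5.70 in the controls, a difference of -0.62 (SE 0.109, adjusted p = 0.0805). The groups did not overlap, and control 3 lay well below the other controls. The pseudogene Vmn2r-ps54, on 2 rows with the same values, was 6.76, 6.77, 6.93 and 6.70 in the knockouts and 7.45, 7.19, 7.05 and 7.33 in the controls, a difference of -0.46 (SE 0.0982, adjusted p = 0.183). The remaining pseudogene, Vmn2r-ps104, differed by 0.07. Of the 4 pseudogene rows 0 were called, and both rows of Vmn2r-ps54 had an unadjusted p under 0.05.

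In the other 20 rows the unadjusted p was at or over 0.05, and the median difference was -0.08. Vmn2r109 was 5.03, 5.04, 5.08 and 4.995 in the knockouts and 4.94, 5.02, 5.01 and 5.12 in the controls, and the 95% interval of its difference ran from -0.14 to 0.16. Vmn2r27 was 4.23, 4.14, 4.18 and 4.15 in the knockouts and 4.21, 4.25, 4.07 and 4.08 in the controls, with an interval of -0.14 to 0.18. The values of both groups overlapped in each. Vmn2r54 was 6.98, 7.28, 7.14 and 7.06 in the knockouts and 6.97, 7.06, 7.37 and 6.93 in the controls, with an interval of -0.22 to 0.29. Vmn2r26 (V2r1b), another receptor of MHC class I peptide ligands in mice, was 7.41, 7.73, 7.29 and 7.19 in the knockouts and 7.20, 7.85, 7.72 and 7.90 in the controls. Its difference was -0.26 (SE 0.172, adjusted p = 0.948), and control 1 lay among the knockouts. Vmn2r26 was also the only member above the dimmest 30% of tested rows by the mean over all 8 samples.

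Differences ranged widely within a genomic neighbourhood. Genes of the family were placed in groups of neighbours by their RefSeq positions, with a new group after a gap of 5 megabases. The 56 rows fell into 13 such groups, and 6 groups held a call. The group from Vmn2r90 to Vmn2r115 had 5 of 15 rows called, with a median difference of -0.43 and a range of -2.21 to 0.01. The group from Vmn2r65 to Vmn2r79 had 2 of 11 rows called (median -0.35), and that from Vmn2r9 to Vmn2r17 had 1 of 7 (median -0.52). The group from Vmn2r19 to Vmn2r27 had 0 of 6 rows called (median -0.07), 1 of them at an unadjusted p under 0.05. Of the 5 shared rows with symbols of this group 3 were called, the rows of Vmn2r19 and Vmn2r20 with the same values, which fell by 0.55 (SE 0.067, adjusted p = 0.00979). A shared row of Vmn2r19, Vmn2r20 and Vmn2r23 differed by -1.47 (SE 0.277, adjusted p = 0.111). Vmn2r81 to Vmn2r83 had 1 of 3 rows called, Vmn2r1 with Vmn2r-ps11 1 of 2, and Vmn2r122 was alone in its group. The remaining 6 groups, of 1 to 3 rows each, held no call (medians of -0.56 to 0.07). No difference between groups of neighbours was tested.

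**Figure D3:**
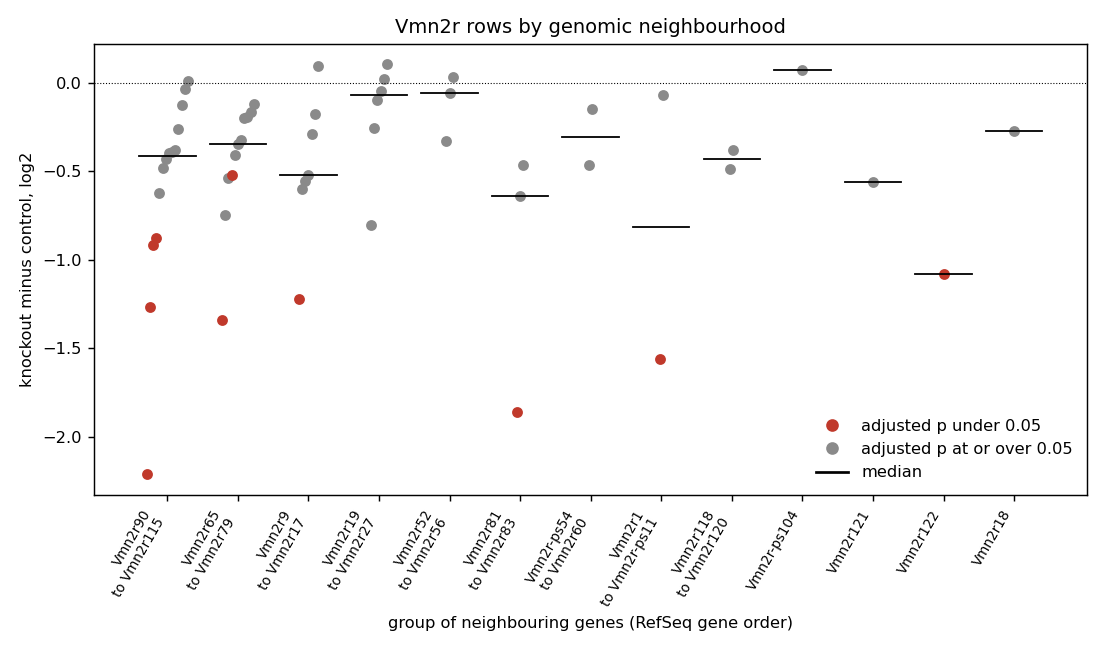
Knockout minus control on the log2 scale (vertical axis) of the 54 rows with distinct values, placed by group of neighbouring genes (horizontal axis), with the median of each group as a line; red marks an adjusted p under 0.05. Of the 13 groups 6 have a red point, and the group from Vmn2r90 to Vmn2r115 spans -2.21 to 0.01.

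In the group from Vmn2r19 to Vmn2r27, Vmn2r24 and Vmn2r26 had windows that were 89.7% identical, and the 95% intervals of both held 0 (the difference of Vmn2r24 was -0.04). The 120 bases are printed from 70 before each annotated start, with the ATG of Vmn2r26 in capitals (chr6:124024688-124024807, plus strand) and, in Vmn2r24 (chr6:123778901-123779020, plus strand), the 12 bases that differ from it in capitals.
Vmn2r26: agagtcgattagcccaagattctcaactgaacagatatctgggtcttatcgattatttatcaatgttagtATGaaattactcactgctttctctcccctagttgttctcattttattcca
Vmn2r24: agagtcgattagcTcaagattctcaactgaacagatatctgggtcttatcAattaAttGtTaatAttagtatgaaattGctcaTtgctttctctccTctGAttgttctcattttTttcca
Vmn2r78 and Vmn2r79 had windows that were 93.3% identical. Vmn2r78 was called, and Vmn2r79 differed by -0.41 (SE 0.0901, adjusted p = 0.218), within the 95% interval of Vmn2r78 (-0.68 to -0.37). Other similar windows went with unlike changes. Those of Vmn2r70 and Vmn2r74 were 87.7% identical, and these genes differed by -0.54 and -1.34. Whether the identity of windows goes with the change was not tested.

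Motif letters were counted in these windows on both strands. The homeodomain core TAATTA was in 16.9% of 118 Vmn2r windows and in 5.29% of all 32851 windows. The Vmn2r windows had a median GC content of 38.2%, against 52.7% for all windows, and its part in the share was not tested. Nor was that of near-identical windows counted apart, or of starts placed at the reading frame. Of the measured genes 43 of 49 had a window, and TAATTA was in 5 of these 43 (Vmn2r9, Vmn2r15, Vmn2r23, Vmn2r99 and Vmn2r118), none of which was called. It was in 0 of the 9 windows of called genes, which are too few to set against the 11.6% of measured genes. The AP-2 core GCCNNNGGC was in 7.63% of Vmn2r windows, against 16.6% of all, and among called genes it was in the window of Vmn2r105. A core of the Olf1/Ebf1 site was counted as well, the other conserved element that the study names in odorant receptor genes. It was in 0 of 118 Vmn2r windows, against 0.904% of all windows, and this difference was not tested. TAATTA and the AP-2 core cannot lie inside each other. A match is a description of the window, and no match says only that the letters are not in it.

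Rows of the same gene did not always move together. Of 7 genes on 2 rows, 2 had the same values on both and 5 did not. Vmn2r17 fell by 1.22 on the row described above, and its other row was 6.26, 5.70, 5.98 and 6.06 in the knockouts and 6.01, 6.18, 6.09 and 6.41 in the controls, a difference of -0.17 (SE 0.132, adjusted p = 0.979). The groups overlapped on that second row. Vmn2r23 differed by -0.80 (SE 0.19, adjusted p = 0.283) on a row and by 0.10 (SE 0.0713, adjusted p = 0.952) on the other.

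The shared rows, which cannot be assigned to a single receptor, were also lower in the knockout. Of 36 rows 24 (66.7%) fell and 0 rose at an adjusted p under 0.05, against 0.350% of all tested rows called lower and 0.00854% higher, and in 34 every knockout lay below every control, where 2.54% of all rows did so. The median difference was -0.98. Probes of such rows match several near-identical receptors, so rows share signal and are not independent; 3 of them, of Vmn2r19 and Vmn2r20, had the same values. The called rows lay mostly in a block of 17 rows with symbols from Vmn2r28 to Vmn2r52, of which 16 fell, with a median of -1.88. The row of Vmn2r29, Vmn2r33, Vmn2r35 and Vmn2r43 was 6.92, 7.49, 6.78 and 6.41 in the knockouts and 9.44, 9.78, 9.58 and 10.19 in the controls. It fell by 2.85 (SE 0.236, adjusted p = 0.00132), 7.20-fold lower, and the lowest control was well above the highest knockout. A row with 8 symbols that include Vmn2r32, Vmn2r34, Vmn2r37 and Vmn2r42 fell by 2.36 (adjusted p = 0.00248), and a row with 14 symbols from Vmn2r28 to Vmn2r52 fell by 2.28 (adjusted p = 0.00132). The only member of this block on a row of its own, Vmn2r52, differed by -0.33 (SE 0.104, adjusted p = 0.641). Of the 5 shared rows that list Vmn2r88, Vmn2r89, Vmn2r121 and others, 2 fell, and a row of Vmn2r88 and Vmn2r89 alone fell by 1.05 (SE 0.128, adjusted p = 0.00989). The row of Vmn2r86 and Vmn2r87 differed by 0.04 (adjusted p = 1.0), the 1 shared row with a difference above 0. Vmn2r53 had no row of its own.

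**Figure D4:**
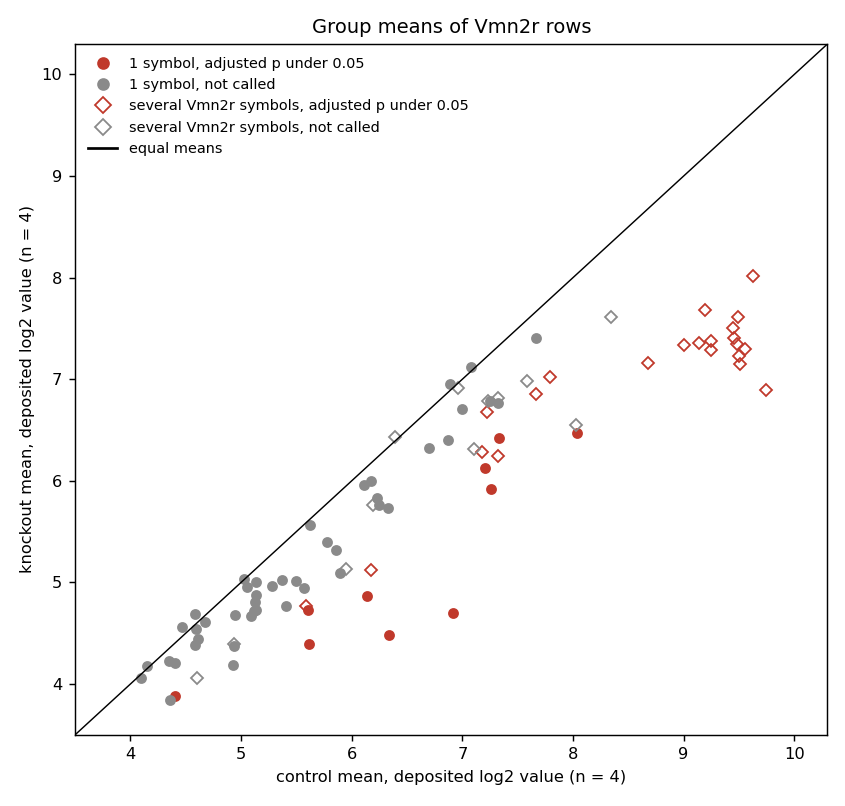
Knockout mean (vertical axis) against control mean (horizontal axis), both as deposited log2 values over 4 samples, for rows with a single Vmn2r symbol (filled circles) and rows with several (open diamonds); red marks an adjusted p under 0.05 and the line equal means. Rows above the line are few (6 circles and 1 diamond), and the 16 called rows from Vmn2r28 to Vmn2r52 include the point farthest from it, at a difference of -2.85.

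The control genotypes were set against each other, since they differ in Cre and in the number of floxed alleles. 123Cre:Emx2(fl/+) and Emx2(fl/fl) differed in 0 of 56 rows at an adjusted p under 0.05 by limma, where 0% of all tested rows were called, and in 3 rows at an unadjusted p under 0.05, where 2.04% of all rows passed. Those 3 rows include both rows of Vmn2r-ps54, which have the same values. The median difference, 123Cre:Emx2(fl/+) minus Emx2(fl/fl), was 0.08, with a range of -0.31 to 0.39. It was above 0 in 37 of 56 rows, and in 28 of 36 shared rows (median 0.18). The share of all tested rows above 0 was not counted. With 2 samples a side the contrast has little power. Against 123Cre:Emx2(fl/+) alone 4 rows fell in the knockout (median of the members -0.43), and against Emx2(fl/fl) alone 3 fell (median -0.34). Of all 23410 tested rows, 42 and 31 were called lower in these fits, where 82 were called lower against all controls. The comparisons share the knockouts.

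Other genes of vomeronasal neurons were read beside the receptors. Of the list of signalling and identity genes 11 of 12 had a row of their own, and 1 was called lower, against 0.350% of all tested rows. Calr4, a calreticulin relative made in these neurons in mice, was 7.02, 7.98, 6.89 and 6.70 in the knockouts and 9.21, 9.36, 9.07 and 9.22 in the controls. Its groups did not overlap, and Calr4 fell by 2.07 (SE 0.247, adjusted p = 0.0095). The call was lost without knockout 1, without both knockouts of mixed signal, with the methods' t-test and against either control genotype alone (adjusted p at most 0.214 over all alternatives). Gnao1, the G protein subunit of Vmn2r neurons that is also made in many other neurons, was 12.79, 12.70, 12.87 and 12.88 in the knockouts and 12.94, 12.96, 13.05 and 12.97 in the controls. Every knockout was below every control, and the difference of -0.17 (SE 0.0686, adjusted p = 0.785) was not called. Gnai2, the subunit of Vmn1r neurons, differed by 0.07 (SE 0.138, adjusted p = 1.0). It averaged 12.18 in the controls, where the Vmn1r rows averaged 5.67. How much of the Gnai2 signal came from Vmn1r neurons was not measured. Tfap2e, a transcription factor of basal vomeronasal neurons, differed by -0.24 (SE 0.181, adjusted p = 0.979). Trpc2, the channel of vomeronasal transduction, was not analysed here. The mean over the 11 genes was 10.52, 10.76, 10.52 and 10.52 in the knockouts and 10.81, 10.89, 10.81 and 10.79 in the controls, a set of values that includes Calr4. The median difference of the 11 genes, which a single gene moves less, was -0.10, with 8 genes below 0 and 3 above.

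The H2-M class Ib genes encode MHC-like molecules found with Vmn2r receptors on the basal neurons. Of 9 measured, 0 were called by limma, and at an unadjusted p under 0.05 1 was lower and 1 higher, against 3.06% of all tested rows lower and 3.04% higher. H2-M10.3 was 6.48, 6.76, 6.62 and 6.82 in the knockouts and 7.11, 7.18, 7.08 and 7.13 in the controls, with no overlap and a difference of -0.46 (SE 0.0851, adjusted p = 0.108). H2-M10.1 differed by 0.25 (SE 0.0808, adjusted p = 0.665), in the other direction. Of 4 measured vomeronasal formyl peptide receptors 0 were called, with differences of -0.25 to -0.10 and 1 at an unadjusted p under 0.05. Of 6 secretory lipocalins 0 were called, with differences of -0.94 to 0.80 and 0 at an unadjusted p under 0.05. In the Vmn1r family, the receptors of the apical neurons, 24 of 119 rows (20.2%) fell and 0 rose, against 0.350% of all tested rows called lower and 0.00854% higher, with a median of -0.35. That count was 12 without knockout 1, 15 without knockout 3 or without control 2, 3 or 4, and at most 30 in the other leave-one-out fits. Lower calls over all tested rows ranged from 46 to 109 in these fits. Whether Vmn2r and Vmn1r rows differ in their change was not tested.

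Some marker lists of the other cells of the mucosa lay to 1 side of 0, with no member called. Of the lists of mature OSN (17 of 18 genes measured), immature OSN (12), sustentacular (6 of 7), respiratory ciliated (7), skeletal muscle (7), olfactory bulb and brain (7) and macrophage genes (6), 0 members were called at an adjusted p under 0.05 by limma. At an unadjusted p under 0.05, 3 mature OSN genes, 5 immature OSN genes and 1 brain gene were lower, and 1 mature OSN gene, 2 ciliated cell genes and 2 muscle genes higher, where 3.06% of all tested rows were lower and 3.04% higher. The mean over the mature OSN list was 11.50, 11.44, 11.44 and 11.59 in the knockouts and 11.62, 11.55, 11.66 and 11.62 in the controls, and the median difference was -0.11. That of the immature OSN list was 10.76, 10.82, 10.77 and 10.82 in the knockouts and 10.86, 11.02, 11.003 and 10.89 in the controls (median -0.17). The means of the immature list did not overlap between groups. In 3 of its 12 genes every knockout lay below every control, where 2.54% of all tested rows did so. Gng8 stands in this list and in the vomeronasal list. All 7 brain genes were below 0 (median -0.31), and their mean was 8.07, 7.96, 8.22 and 7.99 in the knockouts and 8.05, 8.65, 8.43 and 8.10 in the controls. All 7 ciliated cell genes were above 0 (median 0.23), with a mean of 10.36 to 10.67 in the knockouts and 10.1998 to 10.43 in the controls. All 7 muscle genes were above 0 (median 0.10), with a mean of 7.37 to 7.55 in the knockouts and 7.21 to 7.45 in the controls. In these 3 lists the groups overlapped. Sustentacular and macrophage genes had medians of 0.05 and -0.04. The part of these cells in the Vmn2r differences was not tested. With arrays centred on the mature OSN list, which moved the median of all rows to 0.12, 8 of 56 Vmn2r rows fell and the median was -0.28. The part of the amount of vomeronasal tissue in each sample was not tested.

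The rows outside both receptor families whose 8 values were most like the mean over the Vmn2r rows were Gm36028 (Pearson r = 0.97), Ikbkg (0.96), Gm5546 (0.96), Hs6st3 (0.95) and Calr4 (0.95). These correlations are over 8 samples that fall into 2 groups and describe mostly the difference between the groups. Gm36028 was 6.499, 7.12, 6.45 and 6.28 in the knockouts and 8.37, 8.70, 8.36 and 8.54 in the controls, and fell by 1.90 (SE 0.175, adjusted p = 0.00202). Its groups did not overlap. Hs6st3, a heparan sulfate sulfotransferase, fell by 0.62 (SE 0.0857, adjusted p = 0.0212). Ikbkg differed by -0.13 (adjusted p = 0.822) and Gm5546 by -0.33 (adjusted p = 0.251).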

How the data were processed

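Total RNA of each olfactory mucosa sample was measured on its own Affymetrix Mouse Gene ST array. The authors deposited 1 log2 value per transcript cluster and sample, and per the labels the processing notes name Affymetrix Expression Console; the sources used here do not give its version, background correction or normalization. The study's methods describe a normalization to mature OSN mRNAs for odorant receptors; here the deposited log2 values were used as they stand. Groups came from the labels, replicate numbers only name samples, and nothing in the labels ties samples to litters, so the spread behind each p-value is that between these samples and may be partly technical. The number of arrays limits precision.

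Rows with a gene symbol (23410, of which 21789 have 1 symbol and 1621 several) were fitted as knockout minus control, without covariates, using the lmFit and eBayes functions of limma 3.58.1 in R 4.3.3. Tests were two-sided, with Benjamini-Hochberg adjustment across all of these rows. The control genotypes were compared in a fit of 3 genotypes. The procedure was tested on simulated data. Rows were named through the platform annotation, and 56 of 56 member rows matched the RefSeq table (assembly GRCm38.p6). No source used here names the build of the array annotation, so no array coordinates are given. Near-identical receptors can share signal between rows.

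The members, the marker lists and the naming rule were chosen with earlier results of these data known. Named with values were up to 12 called rows, up to 5 uncalled rows of lowest p, up to 4 of smallest difference, measured family C receptors, receptors with a studied ligand, and up to 3 shared rows of largest difference. H2-M10.1, Tfap2e, Vmn2r24, Vmn2r52, Vmn2r70, Vmn2r79, Vmn2r112, the second rows of repeated genes and further shared rows were chosen after their values were seen. The marker lists held vomeronasal, lipocalin, OSN, sustentacular, ciliated, muscle, brain and macrophage genes. Alternatives were the methods' t-test, other normalizations, row filters, variance models, control genotype, sex, a split by title number and every sample left out once.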

Additional observations from a re-analysis of the deposited data

Results flagged for a closer look

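In 56 groups of 4 samples, those of the members, shared rows and other genes named by rule, a sample was set apart when its gap to the nearest other value, divided by the range of the group, was over Dixon's 95% critical value. There were 2 such groups, and chance alone gives about 5%. Vmn2r81 was 4.25 in knockout 4, with the other knockouts at 4.54 to 4.57. Vmn2r110 was 5.28 in control 3, with the other controls at 5.64 to 5.70.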

How the results depend on the processing

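The count of 11 Vmn2r rows that fell was 10 after quantile normalization, 12 with a variance trend and 9 with 1 row per gene. It was 11 with arrays centred on the median of all rows. With a block that splits the samples midway by title number, whose meaning the labels do not give, the count was 11. It was 4 with the methods' t-test, 0 without the dimmest 30% of rows, where 1 row remained, 7 over all rows of the table, 19 with array weights, which gave knockout 2 a weight of 0.17, 4 against 123Cre:Emx2(fl/+) alone, 3 against Emx2(fl/fl) alone and 3 without both knockouts of mixed Xist and Y-linked signal. With 1 sample left out it ranged from 4 to 15. No alternative called a Vmn2r row higher. The cause of these shifts was not tested beyond the smaller numbers of rows and samples. Over all tested rows, 82 lower and 2 higher calls became 28 and 0 with the t-test, 27 and 0 without the dimmest rows, 172 and 52 with array weights, 55 and 12 with mature OSN centring and 23 and 0 without both mixed knockouts. They became 42 and 0 against 123Cre:Emx2(fl/+) alone and 31 and 1 against Emx2(fl/fl) alone. With 1 sample left out the lower calls ranged from 46 to 109. Of the shared rows, chosen as a result after the data were seen, 14 fell with the t-test, 15 without the dimmest rows (16 tested), 14 with 1 row per symbol, 15 against 123Cre:Emx2(fl/+) alone, 14 against Emx2(fl/fl) alone, 13 without both mixed knockouts, and 16 to 24 with 1 sample left out. The median of the members was -0.28 with mature OSN centring, -0.26 without the dimmest rows (Vmn2r26 alone) and -0.43 to -0.36 with 1 sample left out. The control genotypes gave 0 calls under each normalization. Calls on Vmn2r113 and Vmn2r81 held under every alternative that kept their rows (adjusted p at most 0.0435).

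Differences near 0 changed sign. Vmn2r109 was -0.016 after quantile normalization and -0.016 to 0.047 with 1 sample left out. Vmn2r27 was -0.0079 to 0.055 with 1 sample left out. Vmn2r54 was -0.088 with array weights, -0.095 against Emx2(fl/fl) alone and -0.020 to 0.13 with 1 sample left out. The dimmer row of Vmn2r111 was 0.083 with mature OSN centring, 0.0094 with array weights, 0.11 against 123Cre:Emx2(fl/+) alone and -0.15 to 0.018 with 1 sample left out. Gnai2 was -0.060 with array weights and -0.056 to 0.16 with 1 sample left out. No paired analysis was possible because the labels give no numbers that pair knockouts with controls.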
